A study of Mus musculus with 35 samples.

Results

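The data concern how far the transcriptional response of bone marrow-derived macrophages (BMDMs) to the synthetic glucocorticoid dexamethasone (Dex) differed between wild-type cells (WT) and cells labelled AMPKα1-/- (called KO here) when no lipopolysaccharide (LPS) was present. All libraries labelled vehicle, Dex, DAMPs (damage-associated molecular patterns) or DAMPs + Dex were taken, which gave 24 of the 35 libraries of the series. The other 11 libraries had received LPS and are used only for a side comparison and for an alternative fit with all 35 libraries. The quantity followed is the genotype difference in the Dex effect: the change with Dex in KO cells minus the change with Dex in WT cells, averaged over Dex against vehicle and DAMPs + Dex against DAMPs.

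Every library came from bone marrow of C57BL/6 mice grown with L929 cell-conditioned medium, a source of the macrophage growth factor M-CSF. The cells were then treated for 24 h with vehicle (DMSO), 100 nM Dex, 1 µg/ml DAMPs or both agents, with 3 libraries for each of the 8 combinations of genotype and treatment. Neither the labels nor the study's methods state what the DAMPs consist of or which part of the gene was deleted. The labels number the libraries 1 to 3 in each group without saying what a number marks, although the study counts cultures from individual mice as its replicates. The p-values therefore measure the spread between libraries, which may in part be technical.

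Glucocorticoids bind the glucocorticoid receptor, a cytoplasmic receptor held by heat-shock chaperones that enters the nucleus upon binding, where it raises genes such as Tsc22d3 and Fkbp5 and lowers many inflammatory genes. AMP-activated protein kinase (AMPK) is a heterotrimer of a catalytic α, a β and a γ subunit that senses low cellular energy, and α1, encoded by Prkaa1, is the main catalytic subunit of macrophages. Among its known substrates are acetyl-CoA carboxylase, ULK1 and raptor, the scaffold of the nutrient-sensing kinase complex mTORC1.

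The labels were first checked against the data. Prkaa1 (chr15:5143861-5181899, GRCm38) measured 11.8 to 15.9 FPKM (fragments scaled to exon length and library size) in WT vehicle libraries and 14.8 to 16.5 in KO vehicle libraries. With Dex it measured 19.1 to 26.1 in WT and 14.03 to 21.5 in KO, with DAMPs 11.0 to 17.9 and 10.7 to 16.4, and with DAMPs + Dex 12.5 to 20.9 and 20.0 to 24.0. The ranges overlapped in each treatment. The KO mean was lower with Dex (18.6 against 22.8) and higher with DAMPs + Dex (21.9 against 17.65). Averaged over both arms, the KO libraries were thus not lower in Prkaa1 FPKM. The KO minus WT difference was 0.09 without Dex (SE 0.15, adjusted p = 0.88) and 0.02 with Dex (SE 0.15, adjusted p = 0.94) on the log2(FPKM + 1) scale. A value summed over a whole gene cannot show the loss of an exon, so these data do not check the genotype label, and each KO direction given here rests on the label alone. The genotypes could be told apart at another gene, chosen after its values were seen. Eno1b, a near-identical copy of the enolase gene Eno1, lay between 34.6 and 79.1 FPKM in the 12 WT libraries and between 0 and 0.315 in the 12 KO libraries. Eno1 lay between 303.9 and 594.1 in WT and between 611 and 997.5 in KO. Reads of such copies may be split between them, and this difference in background cannot be told apart from the labelled deletion.

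All 24 libraries expressed macrophage genes. The 12 macrophage markers found summed to 21750 to 42840 FPKM, led by lysozyme Lyz2, with Csf1r, the M-CSF receptor, at 488.4 to 683.6 FPKM. Several defining genes of other cells had a median of 0 FPKM (Cd3e, Ms4a1, Ly6g, Elane and Hba-a1), but other members of the same lists were present, such as Cd4 (median 11.4), Ighm (27.4), Cd22 (3.24) and Mmp8 (25.6). The monocyte list, with 8 of 11 genes at a mean of 1 FPKM or more and led by F13a1, summed to 54.3 to 162.9 without Dex and to 354 to 621.5 with Dex. Dendritic cell markers, with 3 of 11 genes and led by H2-Aa, summed to 214.8 to 1445 without Dex and to 25.7 to 129 with Dex. Both shifts were present in each genotype. Of the 8 monocyte markers, 2 had a higher Dex effect in KO (Ly6c2, by 1.23, and Chil3, by 1.36). The effect on 1 other was lower (Nr4a1, -0.75), all at an unadjusted p under 0.05 in limma. Of all genes, 3.88% and 5% were higher and lower at that level. The neutrophil list, of which 6 of 15 genes reached a mean of 1 FPKM, was led by Csf3r and summed to 48.3 to 66.1 in WT Dex libraries and 104.3 to 143.2 in KO Dex libraries. With DAMPs + Dex the neutrophil list summed to 50.9 to 87.3 in WT and 101.8 to 158.9 in KO. With DAMPs alone it summed to 83.6 to 113.6 in WT and 118 to 146.8 in KO, also without overlap. With vehicle the genotypes overlapped (60.0 to 117.9 in WT and 97.7 to 118.4 in KO). The fibroblast list, with 3 of 12 genes at 1 FPKM or more and Acta2 as its most abundant gene, summed to 21.6, 23.6 and 34.1 in WT Dex libraries against 11.3, 15.1 and 7.21 in KO Dex libraries. With DAMPs + Dex it summed to 19.1, 24.96 and 25.8 in WT and 11.85, 9.94 and 5.56 in KO, again without overlap. The macrophage sum itself was 21750 to 26170 in WT Dex libraries and 33640 to 41830 in KO Dex libraries. In the Dex libraries none of these 3 sums overlapped between the genotypes, and their part in the results below was not tested. In bulk samples, fewer cells of a type and less RNA per cell cannot be told apart. Markers of male cells were present in all 24 libraries, with Eif2s3y between 53.9 and 101.6 FPKM, while Xist did not exceed 0.0283. The male list summed to 151.5 to 173.7 in WT Dex libraries and 83.9 to 116.9 in KO Dex libraries, without overlap. In the other treatments the genotypes overlapped, and the part of this list in the results was not tested.

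The step that 1 fragment makes in the deposited values gave 15837203 to 31955298 assigned fragments per library, so that 1 fragment on 1 kb of exon was worth 0.0313 to 0.0631 FPKM. Libraries of the same group correlated at 0.971 to 0.992 (Pearson, 24 pairs, across genes, log2 scale). The first principal component held 48.8% of the variance and separated libraries with Dex from those without, with scores of 23.5 to 36.6 against -37.7 to -27.8. The second held 17.2%, and its scores ran from -39.6 in KO Dex replicate 2 to 36.4 in WT Dex replicate 2, the libraries with the smallest and the largest share of FPKM in long genes. Genes with over 5 kb of exon held 25.3%, 28.5% and 24.2% of all FPKM in the WT Dex libraries but 20.5%, 17.3% and 21.04% in the KO Dex libraries. Long transcripts thus took more of the WT Dex libraries than of the KO Dex libraries, without overlap. In the other treatments the genotypes overlapped (vehicle 20.4 to 24.1% in WT and 21.8 to 23.3% in KO, DAMPs + Dex 18.7 to 23.4% and 20.7 to 22.4%). Summed FPKM ran the other way, at 647329 to 689281 in WT Dex libraries and 725917 to 777210 in KO Dex libraries. In Dex against vehicle, the Dex side of each genotype consists of those libraries. Fits with the long-gene share as a covariate are given below, and the cause of the changes they bring was not tested.

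**Figure D1:**
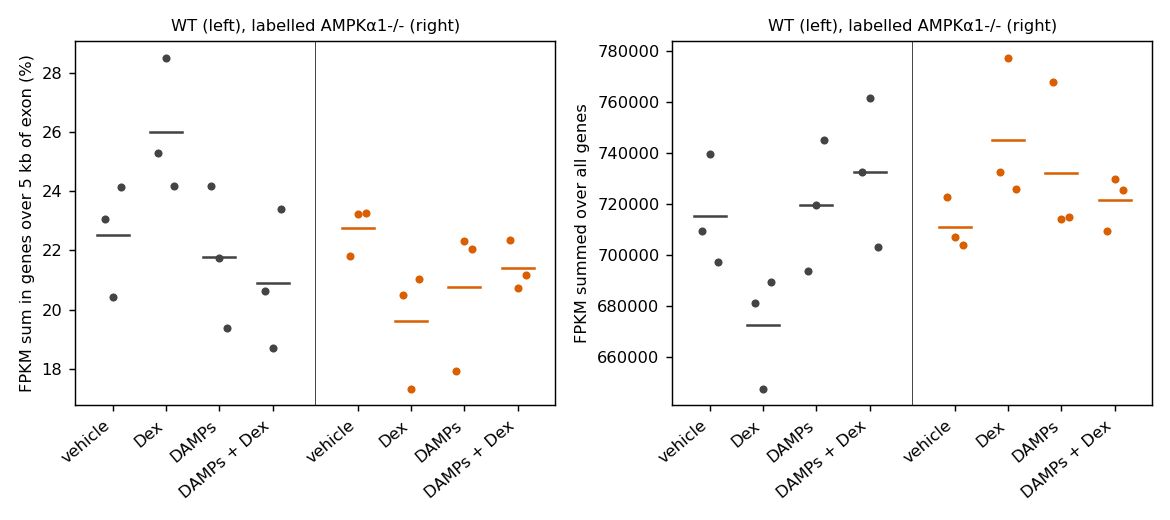
Share of the FPKM sum in genes with over 5 kb of exon (left, %) and FPKM summed over all genes (right) in each of the 24 libraries (points), with group means (lines), grey for WT and orange for libraries labelled AMPKα1-/-. The WT Dex libraries lie at 24.2 to 28.5% and the KO Dex libraries at 17.3 to 21.04%, without overlap, while the genotypes overlap in the other 3 treatments.

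Dex changed a large part of the transcriptome in both genotypes. In WT, 4876 of 11278 genes tested were called (43.2%), of which 2570 rose (22.8%) and 2306 fell (20.4%), and in KO 4565 were called (40.5%), with 2241 raised (19.9%) and 2324 lowered (20.6%) (limma, Benjamini-Hochberg adjusted p under 0.05). Of the 3484 genes called in both, 3477 moved in the same direction and 7 in opposite directions. Across genes the Dex effects of the genotypes had a Pearson correlation of 0.919 and a Spearman correlation of 0.819, which is a description, since genes are not independent and the libraries share depth and composition. Over the 2570 genes raised in WT, the median effect was 0.46 in WT and 0.36 in KO on the log2(FPKM + 1) scale. Over the 2306 genes lowered in WT it was -0.55 in both. The WT effects chose these genes and so lie farther from 0 by construction.

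**Figure D2:**
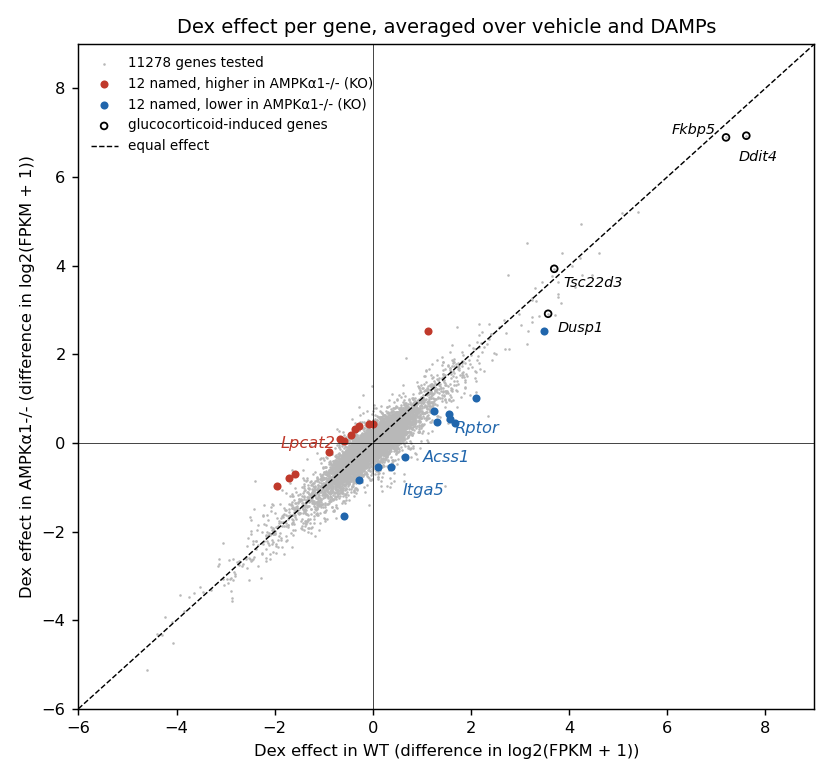
Dex effect per gene in WT (horizontal) and in libraries labelled AMPKα1-/- (vertical), both as differences in log2(FPKM + 1) averaged over vehicle and DAMPs, for 11278 genes (grey). Red and blue points are the 12 named genes above and the 12 below the dashed line of equal effect, which most genes follow. Open circles are glucocorticoid-induced genes.

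The genotype difference in the Dex effect, the question of the comparison, was small for most genes. Only 4 of 11278 genes passed the test (0.0355%, limma, Benjamini-Hochberg adjusted p under 0.05): Lpcat2 was higher in KO relative to WT, and Acss1, Itga5 and Rptor were lower. The fit did not pair libraries by replicate number. At an unadjusted p under 0.05 there were 1002 genes (8.88%), 438 higher (3.88%) and 564 lower (5%). The median over all genes was -0.04, and the median SE of 0.16 gives the precision of a single gene. Sorted by the sign of the estimates alone, whether or not the Dex effects passed their own test, the 1002 genes held 148 with a negative estimate in WT and a negative one nearer 0 in KO, 200 with a negative one farther from 0 and 177 with a positive one. For those with a positive estimate in WT, the estimate in KO was positive but smaller in 200, larger in 113 and negative in 164. The share of higher genes among the 1002 depended on scaling: it was 43.7% as deposited, 29.8% on a TPM scale, 54.4% with libraries centred on one median and 53.9% after quantile normalization. The count of 4 was 242 with array weights. It also depended on single libraries, and became 16 without KO DAMPs replicate 1, 21 without WT DAMPs + Dex replicate 1, 12 without WT Dex replicate 1 and 8 without WT Dex replicate 3.

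Acss1 (chr2:150618105-150668500, minus strand) encodes the mitochondrial acetyl-CoA synthetase, which activates acetate. Its FPKM in WT libraries was 14.3, 18.7 and 18.04 with vehicle and 29.7, 30.1 and 27.4 with Dex. In KO libraries it was 17.6, 18.8 and 19.0 with vehicle and 14.6, 14.4 and 12.6 with Dex. The same split was seen on DAMPs. There the WT values went from 19.2, 21.6 and 19.1 to 31.4, 27.0 and 30.7 with Dex, and the KO values from 16.1, 21.1 and 17.5 to 13.7, 17.0 and 15.4. Without Dex the genotypes overlapped, and with Dex every WT library lay above every KO library. Dex raised Acss1 in WT (log2 change 0.65, adjusted p = 1.5e-06) and lowered it in KO (-0.31, adjusted p = 0.0039). The difference of the effects was -0.96 (SE 0.11, adjusted p = 0.0006), made up of -1.14 against vehicle and -0.78 on DAMPs. It was called in all 42 alternative settings, with values from -1.04 to -0.86.

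Itga5 (chr15:103344286-103366763, minus strand) encodes the integrin α5 subunit, which pairs with β1 to form a fibronectin receptor. In WT it measured 22.2, 18.7 and 23.7 FPKM with vehicle and 26.1, 31.9 and 28.9 with Dex. In KO it measured 22.1, 22.6 and 23.4 with vehicle and 14.2, 14.3 and 14.6 with Dex. Like Acss1, it went up in one genotype and down in the other. On DAMPs, WT libraries held 19.8, 22.7 and 23.6 without and 24.9, 30.3 and 29.7 with Dex, and KO libraries 20.1, 28.6 and 20.1 without and 14.9, 18.3 and 16.1 with Dex. Dex raised it in WT (0.38, adjusted p = 0.002) and lowered it in KO (-0.53, adjusted p = 6.5e-05). The effects differed by -0.91 (SE 0.13, adjusted p = 0.0034). The genotypes did not overlap with Dex and differed by 0.06 without it (adjusted p = 0.87). The call was lost when the 4 WT libraries numbered 2 (-0.82, adjusted p = 0.11) or the 4 KO libraries numbered 1 (-0.93, adjusted p = 0.06) were left out.

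Lpcat2 (chr8:92855339-92919279, plus strand) encodes a lysophosphatidylcholine acyltransferase of lipid droplets that also makes platelet-activating factor. WT libraries held 57.6, 46.1 and 48.6 FPKM with vehicle and 14.8, 12.3 and 17.3 with Dex, and KO libraries 67.9, 65.7 and 58.8 with vehicle and 38.4, 37.1 and 45.4 with Dex. On DAMPs the WT values were 59.0, 52.3 and 56.8 without and 19.2, 18.2 and 22.5 with Dex, and the KO values 82.1, 86.2 and 106 without and 53.4, 48.3 and 62.6 with Dex. Lpcat2 fell with Dex in both genotypes, by less in KO. The log2 change was -1.58 in WT (adjusted p = 3e-11) and -0.69 in KO (adjusted p = 4.5e-06), and the effects differed by 0.89 (SE 0.13, adjusted p = 0.0059). Unlike the other called genes it was already higher in KO without Dex, by 0.51 (adjusted p = 0.0028), and the gap was 1.4 with Dex (adjusted p = 4.6e-09). The call was lost on leaving out the 4 libraries of WT number 1 (0.82, adjusted p = 0.069), WT number 2 (0.86, 0.085), KO number 1 (0.90, 0.063) or KO number 2 (0.95, 0.055).

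Rptor (chr11:119602905-119899576, plus strand) encodes raptor, which AMPK phosphorylates. In WT it measured 18.8, 18.7 and 22.4 FPKM with vehicle and 44.1, 53.8 and 40.6 with Dex, while in KO it measured 18.1, 20.8 and 22.3 with vehicle and 19.1, 20.6 and 23.3 with Dex. On DAMPs, WT libraries went from 19.5, 22.6 and 17.1 to 49.5, 54.7 and 60.6 with Dex, and KO libraries from 13.6, 22.0 and 16.5 to 31.6, 31.3 and 34.9. The increase was thus present on DAMPs in KO, whereas KO vehicle and KO Dex libraries overlapped. Dex raised Rptor in WT (1.30, adjusted p = 3.1e-09) and, averaged over both arms, in KO (0.47, adjusted p = 0.0011). The effects differed by -0.83 (SE 0.15, adjusted p = 0.046), with -1.12 against vehicle and -0.54 on DAMPs. It was called in 17 of the 42 alternative settings. The call was lost, among others, with the share of FPKM in long genes as a covariate (-0.68, adjusted p = 0.061) and on leaving out any 1 of KO DAMPs + Dex replicates 1 and 2, KO Dex replicates 1 and 2, KO DAMPs replicates 2 and 3, KO vehicle replicates 2 and 3, WT DAMPs replicates 1 and 3, WT vehicle replicates 1 and 2, WT DAMPs + Dex replicates 2 and 3 or WT Dex replicate 2 (-0.84 to -0.74, adjusted p 0.056 to 0.1).

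**Figure D3:**
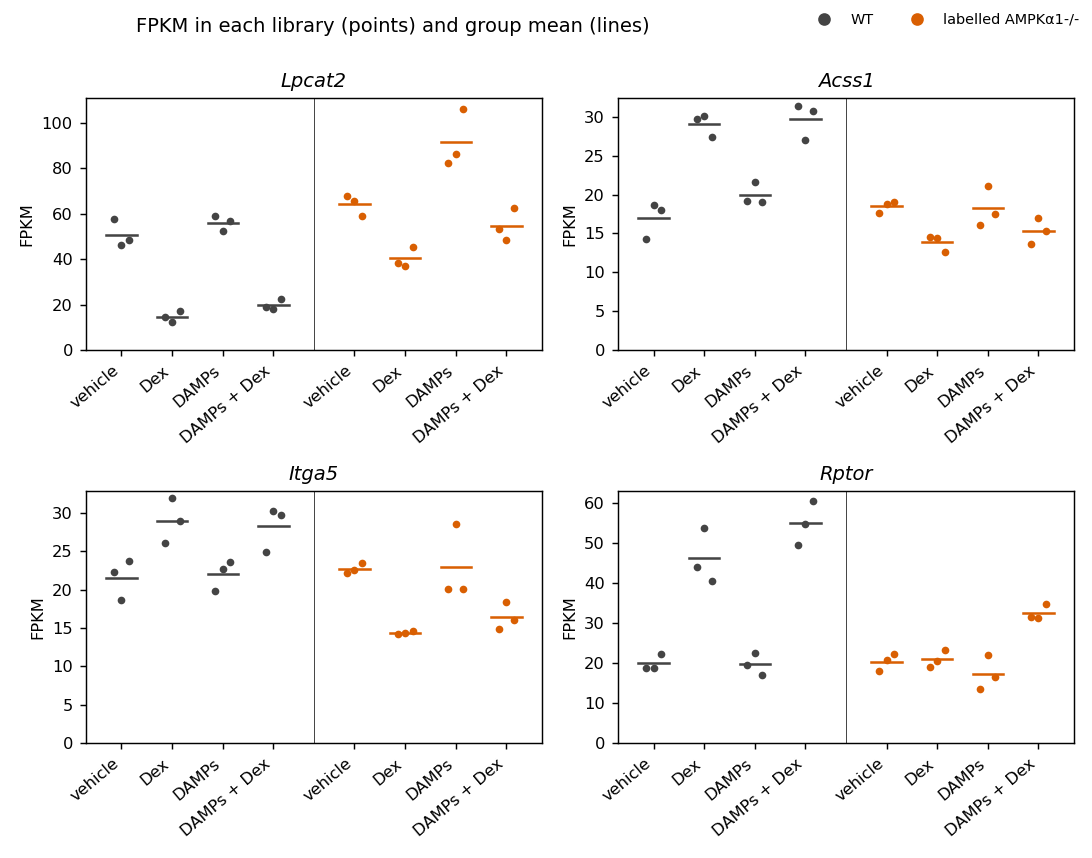
FPKM of the 4 called genes in each library (points) and the group mean (lines), by treatment, grey for WT and orange for libraries labelled AMPKα1-/-. With Dex the 2 genotypes do not overlap for any of the 4 genes. Without Dex they overlap for Acss1, Itga5 and Rptor, while Lpcat2 is higher in KO with vehicle (58.8 to 67.9 against 46.1 to 57.6) and with DAMPs (82.1 to 106 against 52.3 to 59.0).

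The next genes in rank did not pass the adjusted test of this fit, and their values are given as a description. Several encode enzymes. Ivd, isovaleryl-CoA dehydrogenase of leucine breakdown, measured 36.4, 40.8 and 43.7 FPKM in WT Dex and 58.8, 57.3 and 58.9 in KO Dex libraries, against 40.6 to 45.8 and 45.0 to 49.3 with vehicle. Its effects differed by 0.43 (SE 0.08, adjusted p = 0.051): Dex raised it in KO (0.43, adjusted p = 2.5e-06), and in WT the estimate was 0.00. Gda, guanine deaminase of purine breakdown, measured 100.3, 90.2 and 74.0 FPKM in WT Dex libraries and 31.3, 41.3 and 37.8 in KO Dex libraries, from 19.4 to 21.8 and 21.6 to 29.2 with vehicle. It was raised in both genotypes (2.09 in WT and 1.00 in KO), with a difference of -1.09 (SE 0.21, adjusted p = 0.052). Ldhb, a lactate dehydrogenase subunit, fell in WT (-0.68, adjusted p = 0.00016) and had an estimate of 0.09 in KO (adjusted p = 0.58), a difference of 0.77 (adjusted p = 0.11). B4galt1, a galactosyltransferase of the Golgi, was raised by 1.24 in WT and by 0.72 in KO (difference -0.52, adjusted p = 0.052). Pam, which amidates peptides, had a difference of -0.66 (adjusted p = 0.052). B4galt1 and Pam were already higher in KO without Dex, by 0.29 and 0.38 (adjusted p = 0.018 for each in limma).

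Other genes in rank encode proteins of the cytoskeleton, the cell surface and adhesion sites, or secreted ones. Pdlim4, a PDZ and LIM domain protein of the actin cytoskeleton, measured 99.6, 87.4 and 78.7 FPKM with vehicle and 11.2, 17.4 and 25.4 with Dex in WT, against 83.9, 72.2 and 83.6 and then 40.5, 41.5 and 41.2 in KO. It fell in both genotypes, by 1.96 in WT and by 0.97 in KO on the log2 scale (difference 0.99, SE 0.19, adjusted p = 0.052). Clec4a2, a C-type lectin receptor, fell in WT (-0.37, adjusted p = 0.0039) and rose in KO (0.32, adjusted p = 0.011). Its WT Dex libraries held 155 to 250.7 FPKM and its KO Dex libraries 325.8 to 372.7, with a difference in effect of 0.68 (adjusted p = 0.062). It belongs to a family of close paralogs, whose reads may be shared. Fcgr3, a low-affinity Fc receptor for IgG, differed by 0.51 (adjusted p = 0.062), Itm2b, a transmembrane protein, by 0.63 (0.062) and Creg1, a secreted glycoprotein, by 0.70 (0.065). Lims2, a focal adhesion adaptor, was scarce, at 1.15 to 2.69 FPKM in WT Dex and 0.641 to 1.12 in KO Dex libraries, with a difference of -1.22 (adjusted p = 0.062).

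For Cytip, Slc6a12 and Slco4a1 a genotype gap was likewise present without Dex. Cytip, a cytohesin-binding protein of immune cells, measured 8.34, 11.1 and 7.12 FPKM in WT vehicle libraries and 22.5, 34.6 and 21.9 in KO vehicle libraries, and rose to 18.2 to 27.1 with Dex in WT against 24.5 to 37.4 in KO. KO exceeded WT by 1.52 without Dex (adjusted p = 1.7e-06) and by 0.49 with Dex (adjusted p = 0.032). The transporter genes Slc6a12 (betaine and GABA) and Slco4a1 (organic anions) had the same order, with KO above WT without Dex by 1.4 (adjusted p = 9.9e-07) and 1.28 (adjusted p = 5.5e-05). Slco4a1 stood at 2.44 to 4.39 FPKM in KO vehicle libraries and 0.405 to 0.870 in WT ones, and at 0.195 to 0.668 and 0.0519 to 0.263 with Dex, values near the level of a few fragments. In these genes the gap between genotypes was smaller with Dex than without it (differences in effect -1.03, -0.90 and -1.07, adjusted p = 0.062, 0.062 and 0.065). Klf4, a zinc-finger transcription factor, was at 4.66 to 7.84 FPKM in all vehicle libraries and rose to 54.5, 91.9 and 56.7 with Dex in WT and to 40.1, 33.9 and 34.7 in KO (difference -0.96, SE 0.20, adjusted p = 0.062). Slc16a10, a transporter of aromatic amino acids, fell in both genotypes (-0.27 in WT and -0.83 in KO, difference -0.56, adjusted p = 0.066). Of the 24 genes at the ends of the ranking, 23 were called for KO minus WT with Dex and 6 without Dex, beside 13% and 3.21% of all genes. They were ranked on the same libraries, so this count is no independent evidence. The higher genes among the 24 had 1570 (Ldhb) to 5505 (Ivd) bases of exon, with Ivd alone over 5 kb. The lower ones had 3049 (Klf4) to 13471 (Rptor) bases, and Rptor, Pam (11892), Slc16a10 (7356), Cytip (6744) and Gda (6235) exceeded 5 kb. The share of FPKM in long genes also differed between the Dex libraries of the genotypes, and the part of transcript length in this ranking was not tested.

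Of 7 classical genes of the glucocorticoid response, Fkbp5, Tsc22d3, Dusp1, Per1 and Klf9 rose with Dex in both genotypes, while the effects for Zfp36 were 0.34 in WT (adjusted p = 0.08) and -0.10 in KO (0.63), and those for the receptor gene Nr3c1 were -0.27 (0.17) and -0.37 (0.068). Fkbp5, a co-chaperone of the receptor, went from 1.60 to 2.23 FPKM with vehicle to 321 to 354.9 with Dex in WT, and from 2.12 to 3.34 to 296.8 to 355.9 in KO. Ddit4, an inhibitor of mTORC1 signalling, went from 1.94 to 2.70 to 463.9 to 569.8 in WT and from 2.87 to 4.68 to 409.4 to 607.8 in KO. Tsc22d3 (GILZ) reached 667 to 735.8 in WT and 744.5 to 898.6 in KO from about the same start (51.7 to 54.6 and 48.3 to 53.3). The Dex libraries of the genotypes overlapped for Fkbp5 and Ddit4. Effects of 7.20 and 6.89 for Fkbp5 differed by -0.31 (unadjusted p = 0.041), those of 7.61 and 6.93 for Ddit4 by -0.68 (unadjusted p = 0.00053, adjusted p = 0.15) and those of 3.70 and 3.93 for Tsc22d3 by 0.23 (unadjusted p = 0.064). Ddit4 and the phosphatase gene Dusp1 were higher in KO before Dex, by 0.63 (adjusted p = 0.0031) and 0.72 (adjusted p = 0.0025), and with Dex their KO minus WT differences were -0.05 and 0.06 (adjusted p = 0.79 and 0.77). The Dex effects on Dusp1, 3.57 in WT and 2.91 in KO, differed by -0.66 (unadjusted p = 0.0018, adjusted p = 0.21 in limma). Klf9 held 37.4, 42.0 and 28.3 FPKM in WT Dex libraries and 11.7, 6.71 and 13.9 in KO Dex libraries, but 24.4, 15.2 and 31.9 and then 25.2, 18.2 and 13.01 with DAMPs + Dex. Its difference was -1.60 against vehicle and -0.23 on DAMPs, and -0.91 averaged (unadjusted p = 0.013, adjusted p = 0.42). The receptor gene itself, Nr3c1, differed by -0.10 (SE 0.22, unadjusted p = 0.67), Per1 by -0.09 (0.66) and Zfp36 by -0.44 (0.055).

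Over the list of 36 tested glucocorticoid-induced genes, 25 rose and 9 fell in WT, beside 22.8% and 20.4% of all genes, and 23 rose and 7 fell in KO, beside 19.9% and 20.6%, with median effects of 1.44 and 1.49. Of the 36 genes, 9 were higher and 27 lower in the difference, beside 4771 and 6507 of all 11278 genes, with none called, 3 higher and 9 lower at an unadjusted p under 0.05, where 3.88% and 5% of all genes were. The median difference was -0.22, beside -0.04 over all genes tested. Those lower included Map3k6, at 41.2 to 64.9 FPKM in WT Dex and 23.3 to 32.9 in KO Dex libraries (-0.67, unadjusted p = 0.00095). Those higher were Lcn2, Fpr1 and Fpr2, genes of neutrophil and inflammatory biology, and the latter pair did not rise with Dex in either genotype. Lcn2 differed by 2.42 against vehicle but by -0.34 on DAMPs. The neutrophil marker sums given above were also higher in KO Dex libraries. Of the 6 neutrophil markers tested, however, 4 were higher and 2 lower in the difference. An unadjusted p under 0.05 (limma) was reached by 0 of them, beside 8.88% of all genes. Their median difference was 0.10, with 0.62 against vehicle and -0.81 on DAMPs. The part of these markers in the values of Lcn2, Fpr1 and Fpr2 was not tested. The median of the glucocorticoid-induced list was -0.13 against vehicle, where it became 0.04 once libraries were centred on one median, and -0.26 on DAMPs. Genes of the receptor and its chaperones (20 tested) had a median of -0.11, with -0.48 against vehicle and 0.12 on DAMPs. Among them Ncoa3 and Fkbp5 were lower at an unadjusted p under 0.05 averaged, and Ncoa3 differed by -0.90 against vehicle and by 0.10 on DAMPs.

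Matches to the glucocorticoid response element, the site the receptor binds, are printed to show its letters beside these genes. AGAACA and TGTTCT, separated by any 3 bases, were searched on both strands with at most 2 mismatches in the 12 fixed letters, in RefSeq windows (GRCm38.p6) from 250 bases before to 50 after each transcript start. The element was held by 567 of 27025 genes (2.1%), by 2 of 32 glucocorticoid-induced genes with a window (6.25%) and by 0 of the 4 called genes. Capitals mark the match, and the sequence reads 5′ to 3′ on the strand of the gene. Sgk1, a kinase gene induced by glucocorticoids, had it at chr10:21993701-21993715 (plus strand, position -189 from the start, 0 mismatches), and the sulfotransferase gene Sult1a1 at chr7:126676438-126676452 (minus strand, position -34, 2 mismatches). A further window of Sgk1 held another match with 2 mismatches.
Sgk1: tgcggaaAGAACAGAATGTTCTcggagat
Sult1a1: tttctggAGAACAGCCAGTCCTagcactg

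NRF2 target genes had the highest median of the 23 pathway lists. NRF2 (encoded by Nfe2l2) is the transcription factor of the antioxidant response, which drives glutathione synthesis, thioredoxin and pentose phosphate genes. Of 23 tested, 22 were higher in KO relative to WT, 12 of them at an unadjusted p under 0.05 and none lower at that level, with none called after adjustment over all genes. Of all 11278 genes, 4771 were higher, and 3.88% were higher at that level. The median difference was 0.38, beside -0.04 over all genes tested, with 0.57 against vehicle and 0.36 on DAMPs. It stayed between 0.32 and 0.49 over 12 alternative settings. The median Dex effect of the list was -0.25 in WT and 0.11 in KO.

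Prdx1, the thioredoxin-dependent peroxidase peroxiredoxin 1, held 4532, 2804 and 4160 FPKM with vehicle and 1135, 886.4 and 1095 with Dex in WT, and 3143, 3329 and 4110 and then 1698, 2284 and 1746 in KO. With DAMPs + Dex it held 1056, 705.5 and 822 in WT and 1518, 1588 and 1158 in KO. The genotypes overlapped without Dex and not with it. Prdx1 fell in both, by 1.70 in WT and by 0.80 in KO (difference 0.90, SE 0.19, adjusted p = 0.066). Gsta3, a glutathione S-transferase from a family of close copies, rose in both, from 8.90 to 19.6 FPKM to 17.6 to 22.2 in WT and from 7.80 to 10.6 to 24.9 to 47.2 in KO. Its difference of 1.39 (SE 0.30, adjusted p = 0.085) was alike against vehicle (1.36) and on DAMPs (1.43). Taldo1, transaldolase of the pentose phosphate pathway, fell in WT (-0.29, adjusted p = 0.019) and rose in KO (0.37, adjusted p = 0.0038), a difference of 0.66 (adjusted p = 0.062). Slc48a1, which carries haem out of lysosomes, differed by 0.63 (adjusted p = 0.1), Gclm, the regulatory subunit of glutamate-cysteine ligase, by 0.84 (0.27), Nqo1, a quinone reductase, by 0.69 (0.3) and Hmox1, haem oxygenase, by 0.49 (0.5). Hmox1 rose with Dex in both genotypes (1.56 and 2.06). The genes of NRF2 itself and of its inhibitor Keap1 were not among the 12. All 12 genes had the same sign against vehicle and on DAMPs.

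**Figure D4:**
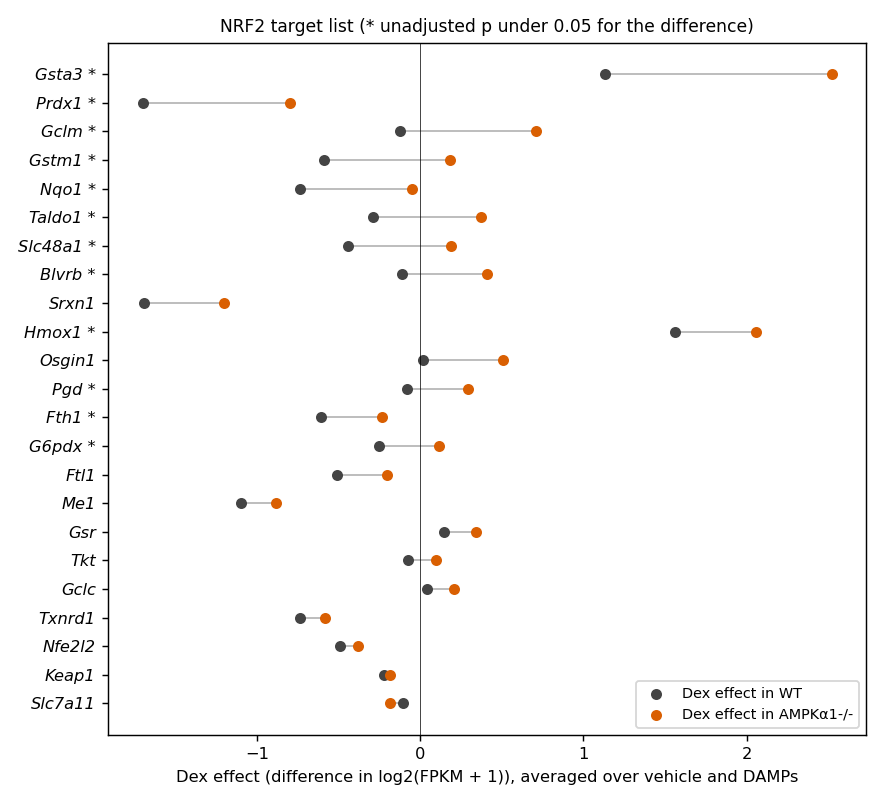
Dex effect in WT (grey) and in libraries labelled AMPKα1-/- (orange) for the 23 NRF2 target genes tested, as differences in log2(FPKM + 1) averaged over vehicle and DAMPs. In 22 of 23 genes the orange point lies to the right of the grey one, and 12 of them have an unadjusted p under 0.05 for the difference (asterisks).

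The antioxidant response element, the site NRF2 binds, is shown for the genes of this list that held it and passed an unadjusted p under 0.05. The letters TGAC and GC separated by any 3 bases, searched without mismatches on both strands in the same windows and chosen after the values were seen, were held by 9 of 19 NRF2 target genes with a window (47.4%) and by 3781 of all 27025 genes (14%). The list was made from known NRF2 targets, so the share is a description and no finding. The matches, in capitals, lay at chr4:116685466-116685474 for Prdx1 (position -133), chr1:21240464-21240472 for Gsta3 (-121), chr3:122245423-122245431 for Gclm (-134), chrX:74428929-74428937 for G6pdx (-57, minus strand gene) and chr4:149166071-149166079 for Pgd (3, minus strand gene). In Prdx1, Gclm and G6pdx the element reads on the opposite strand of the gene.
Prdx1: ggaaagcGCTGAGTCAtcccccg
Gsta3: tcaggcaTGACATTGCatttttc
Gclm: cccgggcGCACCGTCAactctca
G6pdx: cgggtcaGCTCAGTCAaagcaca
Pgd: tcagagcTGACATTGCactgatc

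Among metabolic lists, glycolysis, the TCA cycle and the respiratory chain had positive median differences (KO relative to WT), with 0 genes called. Their counts stand beside 4771 of all 11278 genes higher, and 3.88% higher and 5% lower at an unadjusted p under 0.05. Of 27 glycolysis and glucose uptake genes, 21 were higher, 7 at an unadjusted p under 0.05 and none lower, with a median of 0.16. Pgk1, phosphoglycerate kinase, held 119.4, 107.7 and 126.6 FPKM in WT Dex and 179.7, 192.4 and 170.9 in KO Dex libraries, from 234.4 to 287.8 and 272.8 to 293.3 with vehicle. It fell by 0.84 in WT and by 0.49 in KO (difference 0.35, SE 0.09, unadjusted p = 0.0015, adjusted p = 0.2). With Dex, 18 of the 27 fell and 6 rose in WT, where 20.4% of all genes fell and 22.8% rose, and 13 fell and 7 rose in KO, where 20.6% fell and 19.9% rose. The list includes Eno1, whose reads may be shared with Eno1b. Of 22 TCA cycle genes, 17 were higher and 6 at an unadjusted p under 0.05 (among them Sdhd, Idh3g, Sdhb, Fh1 and Mdh1), with a median of 0.18. That median was 0.14 against vehicle and turned to -0.02 there on a TPM scale. Of 59 respiratory chain genes, 58 were higher and 12 at an unadjusted p under 0.05, with a median of 0.22. This came from Dex against vehicle, where the median was 0.55, while on DAMPs it was -0.05. With the share of FPKM in long genes as a covariate the respiratory chain medians were 0.04 averaged and 0.05 against vehicle.

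Genes of the AMPK pathway were mixed. Of the 12 subunit and upstream kinase genes tested, 1 was higher and 2 lower at an unadjusted p under 0.05, beside 3.88% and 5% of all genes. Camkk2, a calcium-dependent kinase that activates AMPK, measured 46.6 to 66.4 FPKM in WT Dex and 29.3 to 40.9 in KO Dex libraries, against 40.01 to 49.7 and 45.1 to 52.5 with vehicle (difference -0.52, unadjusted p = 0.0014, adjusted p = 0.18). Prkag2, a γ subunit, rose in both genotypes (0.95 and 0.62, difference -0.33, unadjusted p = 0.029). Of 27 substrate and effector genes, 22 were lower in KO relative to WT, beside 6507 of all 11278 genes, of which Rptor was called and Fnip2, a folliculin partner, had an unadjusted p of 0.017 (-0.58). The list's median was -0.16 averaged, -0.37 against vehicle and 0.08 on DAMPs, and -0.01 averaged with the long-gene covariate. Transcript levels do not measure the phosphorylation through which AMPK acts on these proteins.

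Cell cycle genes leaned the other way, with 29 of 32 lower in KO relative to WT, beside 6507 of all 11278 genes, and 3 at an unadjusted p under 0.05 (limma), a level that 5% of all genes passed in this direction. These were Top2a, a topoisomerase (-0.71, adjusted p = 0.5), Cenpe, a kinetochore motor (-0.52, 0.43), and cyclin D1 (Ccnd1, -0.62, 0.55). With Dex, 14 of the 32 fell and 1 rose in WT, beside 20.4% and 22.8% of all genes, and 24 fell and 0 rose in KO (limma), beside 20.6% and 19.9%, with median effects of -0.36 and -0.65. Its median difference of -0.32 was -0.55 against vehicle and -0.07 on DAMPs. Among complement and Fc receptor genes (16 tested), Fcgr3, Fcer1g and properdin (Cfp) were higher and 0 lower at an unadjusted p under 0.05, beside 3.88% and 5% of all genes. Cfp held 257.4, 161.3 and 269 FPKM in WT Dex and 372.9, 545.6 and 447.2 in KO Dex libraries (difference 0.80, unadjusted p = 0.0007, adjusted p = 0.15). The median of the list was 0.19, and 0.01 with the long-gene covariate. The macrophage marker sum, led by Lyz2 (mean 25030 FPKM, beside a median sum of 32210), was higher in KO Dex libraries as well. The median difference of the 12 macrophage markers was 0.14, with 0.33 against vehicle and -0.09 on DAMPs. The part of these markers in the values of the complement and Fc receptor list was not tested. Among extracellular matrix and protease genes, 15 of 21 were lower, beside 6507 of 11278 over all genes, and 2 of them at an unadjusted p under 0.05 (5% of all genes), with a median of -0.19. Adam8, a membrane protease, was at -0.58 (adjusted p = 0.18), and rose with Dex in both genotypes (1.28 and 0.71). The fibroblast marker sums given above were also lower in KO with Dex and with DAMPs + Dex, and their part in this was not tested.

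Interferon-stimulated genes were lowered broadly by Dex. Of 38 tested, 35 fell in WT and 37 in KO, beside 20.4% and 20.6% of all genes, and for 0 did the genotype difference reach an unadjusted p under 0.05 (limma), which 8.88% of all genes reached. Its median was -0.07, with 0.28 against vehicle and -0.26 on DAMPs. Class II antigen presentation genes fell alike, 10 of 11 in each genotype beside the same shares of all genes, with median effects of -2.86 and -2.63 and 1 lower difference at an unadjusted p under 0.05 (Ciita, their master activator, -0.70). Ciita was low in both genotypes with Dex, at 0.048 to 0.161 FPKM in WT and 0.141 to 0.347 in KO. Its KO minus WT difference was 0.85 without Dex and 0.15 with Dex (adjusted p = 0.0039 and 0.54 in limma). The -0.70 thus reflects the gap without Dex and does not show a stronger lowering in KO. Inflammatory cytokine and enzyme genes had a median of -0.12 and chemokines of 0.06. Of 15 chemokine genes tested, 2 were higher (Ccl9, 0.77, and Pf4, 0.92) and 3 lower (Cxcl2, Ccl2 and Ccl17) at an unadjusted p under 0.05, beside 3.88% and 5% of all genes. Cxcl2 was lower by -0.73 (unadjusted p = 0.0017): it held 1.96 to 2.72 FPKM in WT and 3.04 to 4.40 in KO vehicle libraries, and 1.39 to 2.38 and 1.25 to 1.66 with Dex. Scavenger receptor and alternative activation genes had 2 of 24 members in each direction at an unadjusted p under 0.05, beside 3.88% of all genes higher and 5% lower. Marco, a scavenger receptor for bacteria and particles, measured 17.5, 10.1 and 19.5 FPKM in WT Dex and 54.2, 72.0 and 50.5 in KO Dex libraries (difference 1.04, adjusted p = 0.23). Medians were 0.09 for fatty acid oxidation, 0.03 for sterol and fatty acid synthesis, 0.08 for cholesterol efflux, 0.01 for HIF1 targets, 0.00 for lysosomal genes, -0.12 for the circadian clock and 0.04 for mitochondrially encoded genes. The sign of the averaged median turned in at least 1 alternative setting for the lists of receptor chaperones, AMPK subunits, sterol synthesis, cholesterol efflux, HIF1 targets, cytokines, chemokines, scavenger receptors, class II, lysosomal, circadian and mitochondrially encoded genes. Of all the pathway lists, only NRF2 targets and glycolysis also kept the sign of both single-arm medians in all 12 alternative settings.

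**Figure D5:**
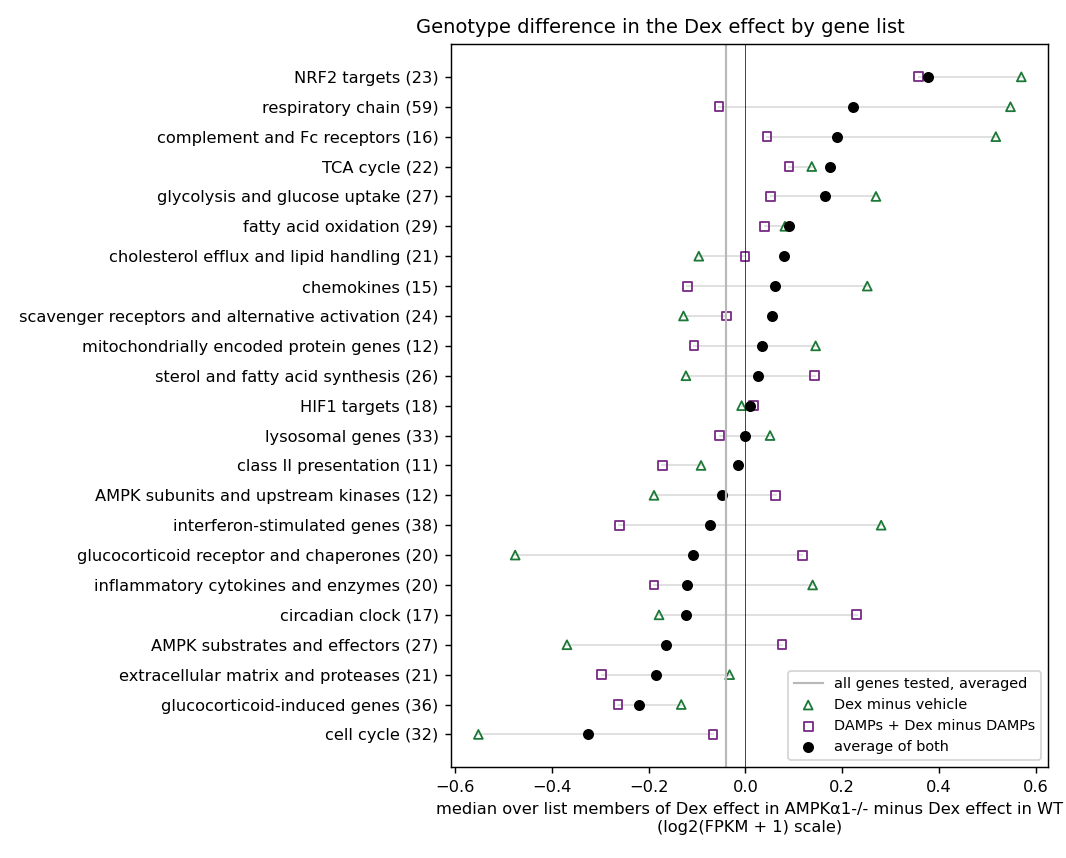
Median over the tested members of each list (number in brackets) of the Dex effect in libraries labelled AMPKα1-/- minus that in WT, on the log2(FPKM + 1) scale. Black points average both arms, triangles are Dex against vehicle, squares DAMPs + Dex against DAMPs and the grey line the averaged median of all genes tested (-0.04). NRF2 targets lie highest at 0.38 with both arms positive, cell cycle genes lowest at -0.32, and for the respiratory chain the arms lie at 0.55 and -0.05.

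The 2 arms of the average were unlike. Against vehicle, 1 gene was called (0.00887%), Acss1 (-1.14, SE 0.16, adjusted p = 0.0087), but 2970 genes (26.3%) had an unadjusted p under 0.05, 1060 higher (9.4%) and 1910 lower (16.9%). That call was lost with libraries centred on one median, after quantile normalization, with all 35 libraries in the fit and with the long-gene covariate. On DAMPs, limma called 0 genes, and 303 (2.69%) had an unadjusted p under 0.05, 119 higher (1.06%) and 184 lower (1.63%). Of the 2970 genes, 1026 (34.5%) had the same sign on DAMPs and 70 also an unadjusted p under 0.05 there. Across genes the differences of the arms, which share no libraries, had a Pearson correlation of -0.23. A test of the difference between the arms called 0 genes, with 1731 (15.3%) at an unadjusted p under 0.05 and a smallest adjusted p of 0.32 (limma). Its leading genes included Tomm7, a mitochondrial import subunit (0.72 against vehicle and -0.28 on DAMPs), and the cell cycle kinase gene Wee1 (-1.08 and 0.38).

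The long-gene share moved with the vehicle arm. With it as a covariate, 399 in place of 2970 genes had an unadjusted p under 0.05 against vehicle, and 104 in place of 1731 in the test between the arms. Scaling moved the median of all genes against vehicle, from -0.11 as deposited to -0.25 on a TPM scale, 0.06 with libraries centred on one median and 0.02 after quantile normalization. The share of higher genes among those at an unadjusted p under 0.05 was 35.7% as deposited, 16.2% on the TPM scale, 61.2% centred and 52.6% quantile normalized. The count of 1 became 8 without KO DAMPs replicate 1, 5 without WT Dex replicate 3, 3 without WT Dex replicate 1 or KO DAMPs replicate 2 or 3, 2 without KO Dex replicate 1 or WT vehicle replicate 3, and 0 without KO Dex replicate 3.

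KO minus WT gave 362 called genes without Dex (3.21%), 216 higher and 146 lower, and 1462 with Dex (13%), 680 higher and 782 lower (limma, Benjamini-Hochberg adjusted p under 0.05). All 4 genes with a called difference in effect were also called with Dex, and Lpcat2 also without. The share of higher calls with Dex was 46.5% as deposited, 34.2% on a TPM scale, 59.6% with libraries centred and 60.7% with the long-gene covariate. With that covariate the order of the counts turned, to 692 calls without Dex and 639 with Dex. The count with Dex became 831 without KO DAMPs + Dex replicate 2, 818 without KO Dex replicate 2, 710 without WT Dex replicate 2 and 730 without WT DAMPs + Dex replicate 3, and that without Dex became 239 without KO DAMPs replicate 2 and 231 without WT vehicle replicate 1. Of the 1002 genes with an unadjusted p under 0.05 for the difference in effect, 105 were called without Dex and 481 with Dex, which is a description, since these comparisons share libraries.

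In the libraries with LPS, of which WT LPS had only 2, the same difference (LPS + Dex against LPS, KO minus WT) was called for 0 of 11354 genes, with 311 (2.74%) at an unadjusted p under 0.05 (limma). Acss1 was low throughout, at 0.62 to 3.79 FPKM. Itga5 measured 237 and 272.8 FPKM with LPS in WT and 90.0, 65.7 and 99.8 with LPS + Dex, and 183.7, 208.8 and 321.8 and then 45.7, 55.8 and 61.5 in KO. With LPS, then, every LPS + Dex library lay below every LPS library in both genotypes, whereas without LPS the WT and KO values moved in opposite directions. Rptor measured 13.9 and 13.3 with LPS in WT and 27.7, 29.8 and 14.5 with LPS + Dex, and 11.9 to 14.7 and then 14.5 to 18.2 in KO. The differences were -0.49 for Itga5 (unadjusted p = 0.063), -0.50 for Rptor (0.08), 0.38 for Lpcat2 (0.099) and -0.18 for Acss1 (0.5). Of the 24 genes at the ends of the ranking, 14 had the same sign with LPS, 1 of them at an unadjusted p under 0.05 in limma (Fcgr3, 0.51). The lowest unadjusted p of the 24 belonged to Cytip, which had the opposite sign (1.11, unadjusted p = 0.0023 against 0.028 for Fcgr3, adjusted p = 1 for both in limma), and Lims2 did not pass the filter there.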

How the data were processed

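Tables of gene-level FPKM deposited by the authors were used, 1 per library. The submitters' processing notes name Bowtie2 2.2.3, TopHat2 2.0.12, HTSeq 0.6.1, DESeq2 and the builds GRCm38 and mm10. Gene symbols and coordinates were taken from GENCODE M21 (46574 of 47069 identifiers had a symbol). FPKM values are scaled to the library and to exon length, so depth was inferred from the step of 1 fragment (55.3 to 63.0% of values under 10 fragments were whole within 0.001 of a fragment), and no count model was used.

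Genes with a mean of at least 1 FPKM over the 24 libraries (11278) were fitted as log2(FPKM + 1) by limma 3.58.1 (R 4.3.3; trended moderation, 8 group means, 16 residual degrees of freedom), with Benjamini-Hochberg adjustment at 0.05 over all genes. The pseudocount of 1 understates changes of low genes. Contrasts averaged both arms; differences in effect are KO minus WT. Named were Prkaa1, then up to 12 genes in each direction (called, then by smallest p, with the same sign in both arms), up to 3 of each list by smallest p, classical glucocorticoid targets and the 3 leading genes of the test between the arms. Of these last, Gm17132 is named here only. The gene set, the lists and the comparison were chosen with earlier results of these data known. The fit was tested on simulated data, and promoter windows came from RefSeq. Alternatives were another pseudocount, filter, scaling, weights, block or covariate and leaving out libraries. LPS libraries entered only the side comparison and the alternative with all 35 libraries in the fit. Results for some genes that the naming rule covers are not reported here.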

Additional observations from a re-analysis of the deposited data

Results flagged for a closer look

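The results listed here had a tested difference between the genotypes in the same contrast (limma, Benjamini-Hochberg adjusted p under 0.05), and none was weighed further. The Dex effect on Acss1 was lower in KO than in WT by -0.96 averaged over both arms and by -1.14 against vehicle alone. The call against vehicle was lost in some of the alternative settings given below. That on Itga5 was lower by -0.91 and that on Rptor by -0.83. Lpcat2 had a higher value in KO, by 0.89. Groups held 3 libraries, so no single library was tested as an outlier.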

How the results depend on the processing

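For the difference averaged over both arms, Acss1 kept its call in all 42 alternative settings, and Itga5, Lpcat2 and Rptor kept their sign in all 42 and their call in 40, 38 and 17. The count of 4 genes called for the averaged difference in effect was 12 with log2(FPKM + 0.1), 13 without a filter, 13 at a mean FPKM of at least 5, 9 after quantile normalization and 242 with array weights. Against vehicle, the count of 1 became 3, 7, 3 and 134 under the first 3 and the last of these, 0 with all 35 libraries in the fit, and, in settings chosen after seeing the data, 2 on a TPM scale and 0 with the long-gene covariate. Centring and quantile normalization also called 1 gene there, but a higher one. The call of Acss1 against vehicle was lost in the 4 of these settings with 0 genes or only a higher one, and also, with 0 genes called, without KO Dex replicate 3 and without replicate 1 or 2 of all WT groups or replicate 2 or 3 of all KO groups. On DAMPs the count of 0 became 3 without a filter and 2 with array weights. KO minus WT without Dex moved from 362 to 232 at a mean FPKM of at least 5, 1524 with array weights and 692 with the covariate, and with Dex from 1462 to 2961 with array weights and 639 with the covariate. Leaving out libraries gave 1 to 21 genes averaged, 0 to 57 against vehicle, 158 to 389 for KO minus WT without Dex and 492 to 1773 with Dex. The cause of these changes was not tested. Counts for the Dex effect in WT and KO stayed within 1.5 times throughout, at 3434 to 5164 and 3399 to 4654 with libraries left out. Depth limits genes of few fragments, such as Slco4a1.

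Whether equal replicate numbers mark a pairing is not stated. Deviations from group means correlated at -0.50 to 0.61 over 36 pairs of libraries with the same number (median 0.22, 21 over 0.1) and had a median of -0.08 over 72 pairs with different numbers (21 over 0.1). Since not every pair of the same number was over 0.1, the numbers were not taken as pairs. This rule does not show that a pairing was absent. With the replicate block of genotype and number, 34 genes were called averaged and 4 against vehicle, and with number across genotypes as the block 26 and 4. The 4 called genes were among the 34, as were Ivd, Pdlim4, Clec4a2, Fcgr3, Creg1, Prdx1, Ldhb, B4galt1, Pam, Gda, Cytip, Klf4, Lims2, Slco4a1, Dusp1 and Adam8, which were not called without the block.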
